A study of Mus musculus with 48 samples.

Results

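The Hippo pathway genes described here are the kinases Lats1, Lats2, Stk3 and Stk4, the coactivators Yap1 and Wwtr1 (the gene of Taz), and the DNA-binding factors Tead1, Tead2, Tead3 and Tead4. They were chosen by symbol, with earlier results of these data known. They account for 11 of the 20171 gene rows in the deposited count table, because Lats2 has 2 rows. All 11 rows were tested in each comparison. Mouse embryonic stem cells were lysed, and RNA was sequenced both from the lysate (input) and from what magnetic HA beads recovered from it (immunoprecipitate, IP). Every line was of the 129S6/SvEvTac strain and carried the GFP_5xT71BS reporter, and the growth protocol lists a stable FLAG-Cas9 and blasticidin resistance transgene for all samples. The untagged control has no HA tag, the HA-Tnrc6a line has the genotype HA-AVI-Tnrc6a, and the 2 further lines add Ago2-/- or Upf1-/- to it. Input and IP of these 4 genotypes were each sequenced as 3 libraries in experiment 3 and 3 in experiment 4, which gives 16 groups and 48 libraries. The number of clones per genotype and the relation between the dishes of an experiment are not given in the sources used here, so p-values measure the spread between these samples. The count columns numbered 1 to 3 were taken as experiment 3 and those numbered 4 to 6 as experiment 4. This assignment is inferred from the numbers, and averages over the 2 experiments do not depend on it.

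Hippo signalling is a kinase cascade. The Ste20-like kinases Mst2 (Stk3) and Mst1 (Stk4), with their adaptor Sav1, phosphorylate Lats1 and Lats2, which with Mob1 phosphorylate Yap and Taz. Phosphorylated Yap and Taz are held in the cytoplasm or degraded, whereas the unphosphorylated forms enter the nucleus and activate genes bound by the Tead factors. Tnrc6a (GW182) is the scaffold through which Argonaute proteins loaded with microRNAs recruit deadenylases to mRNAs, so mRNAs recovered with it include those bound by microRNA complexes. Ago2 is one of the Argonautes. Upf1 is the RNA helicase of nonsense-mediated mRNA decay, the pathway that degrades mRNAs with premature stop codons.

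The miR-290 cluster is the most abundant microRNA cluster of mouse embryonic stem cells. The miR-302 cluster shares its seed, and Lats2 is a known target of this family. Mature sequences with this seed, and 2 from other loci with a seed offset from it (miR-17 and miR-106b), are shown because the Lats mRNAs had the largest enrichment of the 10 genes. The capitals mark the seed, bases 2 to 8, through which a microRNA pairs with its target. The sequences are from RefSeq (GRCm38.p6). The first 5 share 1 seed, held by 5 of the 1679 mature mouse names in that table, and the last 2 share a seed offset by 1 base, held by 7 names.
mmu-miR-291a-3p: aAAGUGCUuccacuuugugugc
mmu-miR-294-3p: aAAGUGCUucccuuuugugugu
mmu-miR-295-3p: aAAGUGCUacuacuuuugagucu
mmu-miR-302b-3p: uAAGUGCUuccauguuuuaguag
mmu-miR-302d-3p: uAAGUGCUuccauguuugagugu
mmu-miR-17-5p: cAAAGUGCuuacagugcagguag
mmu-miR-106b-5p: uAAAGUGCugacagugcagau
The libraries measured mRNAs, not microRNAs, and seed matches in the mRNAs were not analysed here.

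In RefSeq coordinates (GRCm38.p6), Lats1 spans chr10:7681200-7716461, Lats2 chr14:57689662-57746212, Stk3 chr15:34875499-35155882 and Stk4 chr2:164074113-164155524. Yap1 lies at chr9:7931999-8004638 and Wwtr1 at chr3:57455644-57575910. The Tead genes lie at chr7:112679356-112906784 (Tead1), chr7:45215792-45233468 (Tead2), chr17:28331671-28350805 (Tead3) and chr6:128227143-128300813 (Tead4). The spans of Lats1, Lats2, Wwtr1 and Stk3 overlap other annotated genes (Pcmt1, Gm26440 and Gm52140, Gm16016, and Gm52204). Whether counting used the strand is not given in the sources used here, so part of their counts may belong to those neighbours. The Lats2 rows are ENSMUSG00000021959, called Lats2 below, and ENSMUSG00000114942, called the second Lats2 row, which the table also names Lats2 and the reference table of names calls Gm49361. The second row held a median of 0.81 times the count of the first over the 24 inputs and 0.49 times over the 24 IPs. By genotype, the median in IPs was 0.45 to 0.49 in the tagged lines. In untagged cells it was 0.90 in IPs and 0.92 in inputs. The 2 rows may share reads, so their values are uncertain and are not summed.

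The total count per library was 15383953 to 19595405 for the inputs of experiment 3 and 26458831 to 37179105 for those of experiment 4. For the IPs it was 11471544 to 18344233 in experiment 3 and 25724085 to 73845953 in experiment 4. All 10 embryonic stem cell markers were present in the inputs, where their summed level was 6984 to 8643 CPM (counts per 1000000, with library sizes scaled by TMM over all libraries). Tnrc6a mRNA itself was enriched by 7.77 ± 0.18 (log2 ± SE) in HA-Tnrc6a IPs. Ago2 mRNA was 1.21 ± 0.03 lower (log2 -1.21) in Ago2 knockout inputs than in HA-Tnrc6a inputs, and Upf1 mRNA was 0.58 ± 0.03 (log2) higher in inputs labelled Upf1 knockout. The mRNA level does not show whether Upf1 protein was lost, which was not measured here. Libraries and cells of this line are therefore called labelled Upf1 knockout throughout, after their label.

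The levels of the 10 mRNAs in HA-Tnrc6a inputs, per kilobase of the deposited gene length, differed widely. Tead2 was the most abundant, with a median of 30.02 CPM per kilobase over the 6 libraries (range 26.6 to 32.2). Yap1 (median 16.4, range 12.8 to 19.7), Stk4 (median 16.1, range 14.2 to 18.0) and Tead1 (median 13.6, range 13.1 to 14.02) followed. Of these neighbours, the ranges of Yap1 and Stk4 overlapped, while Tead2 was apart from Yap1 and Stk4 from Tead1. Wwtr1 (median 6.99) and Tead4 (median 6.44) overlapped, as did Stk3 (median 3.55) and Lats1 (median 3.52). Lats2 (median 0.92, range 0.67 to 1.06) and Tead3 (median 0.47, range 0.34 to 0.64) were the least abundant, and their ranges did not overlap. Yap1 separated by experiment, with means of 13.1 in experiment 3 and 19.5 in experiment 4.

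**Figure D1:**
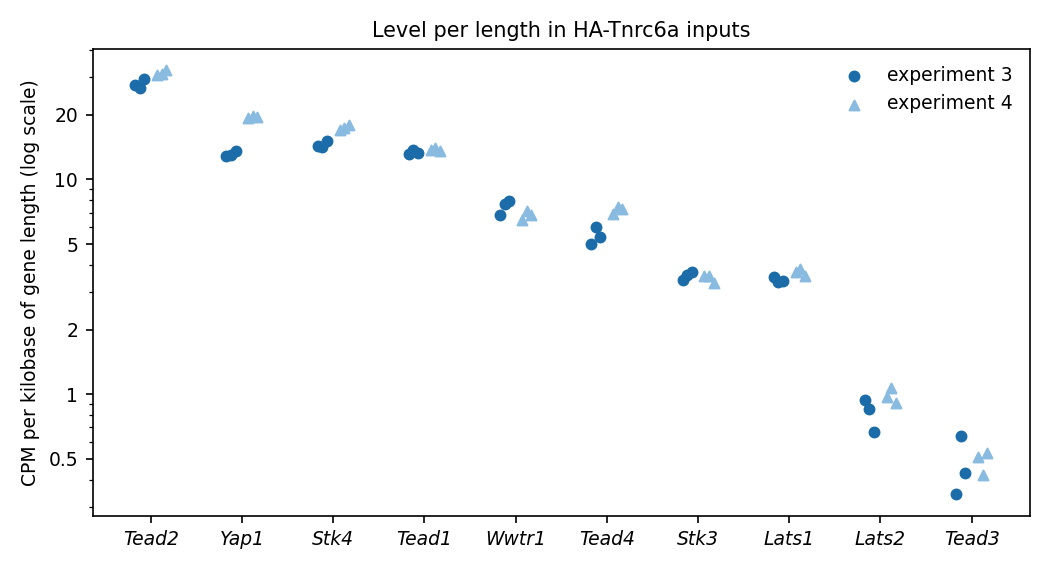
Level of each Hippo pathway mRNA in the 6 HA-Tnrc6a inputs, in CPM per kilobase of gene length on a log scale (circles, experiment 3; triangles, experiment 4). Tead2 has the highest median (30.02), and Lats2 (0.92) and Tead3 (0.47) have the lowest.

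The first comparison asked which mRNAs were recovered with HA-Tnrc6a beyond the background of the beads. Enrichment is the log2 ratio of IP to input in the tagged line less the same ratio in untagged cells, averaged over the 2 experiments. The Lats kinases stood far above the other members, with Lats1 enriched 18.5-fold and Lats2 9.46-fold. Tead4, Tead1, Stk4 and Tead3 were enriched between 1.53-fold and 2.25-fold, Yap1 and Stk3 were lower than in the untagged control, and Tead2 and Wwtr1 did not pass the test. That is 6 of 10 genes higher, 2 lower and 2 not past an adjusted p of 0.05 (edgeR quasi-likelihood test), where 62% of the 19993 genes tested passed (29.8% higher and 32.2% lower). The median over the 10 genes was 0.72 (log2), against -0.10 over all genes. At least 2-fold enrichment with an adjusted p under 0.05 was found for Lats1, Lats2, Tead4 and Tead1, and for 16.5% of all genes.

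Lats1, the kinase that phosphorylates Yap and Taz, was at 771, 688 and 589 CPM in the 3 HA-Tnrc6a IPs of experiment 3 and at 660, 547 and 522 CPM in those of experiment 4. In untagged IPs it was at 24.2, 28.7 and 33.0 CPM in experiment 3 and at 43.9, 36.5 and 41.1 CPM in experiment 4. Its inputs of both genotypes lay between 19.4 and 28.5 CPM. Every HA-Tnrc6a IP was therefore over 10 times above every untagged IP and every input of these genotypes. The enrichment was 4.21 ± 0.11 (log2 ± SE, n = 3 per group, adjusted p = 5.3e-24). It ranked as number 107 from the top of 19993 genes, and it was 4.50 in experiment 3 and 3.92 in experiment 4.

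Lats2, the paralogue of Lats1 with the same substrates, was much rarer in the lysates but was enriched to a similar order. Its level was 91.5, 72.5 and 69.4 CPM in HA-Tnrc6a IPs of experiment 3, and 83.7, 59.7 and 58.7 CPM in those of experiment 4. Untagged IPs held 4.9, 4.3 and 5.11 CPM in experiment 3 and 5.5, 4.64 and 4.72 CPM in experiment 4. The groups did not overlap. The enrichment was 3.24 ± 0.18 (log2, adjusted p = 1.5e-16), at position 355 of all genes, with 3.39 and 3.10 in experiments 3 and 4. The second Lats2 row was enriched by 2.72 ± 0.18.

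**Figure D2:**
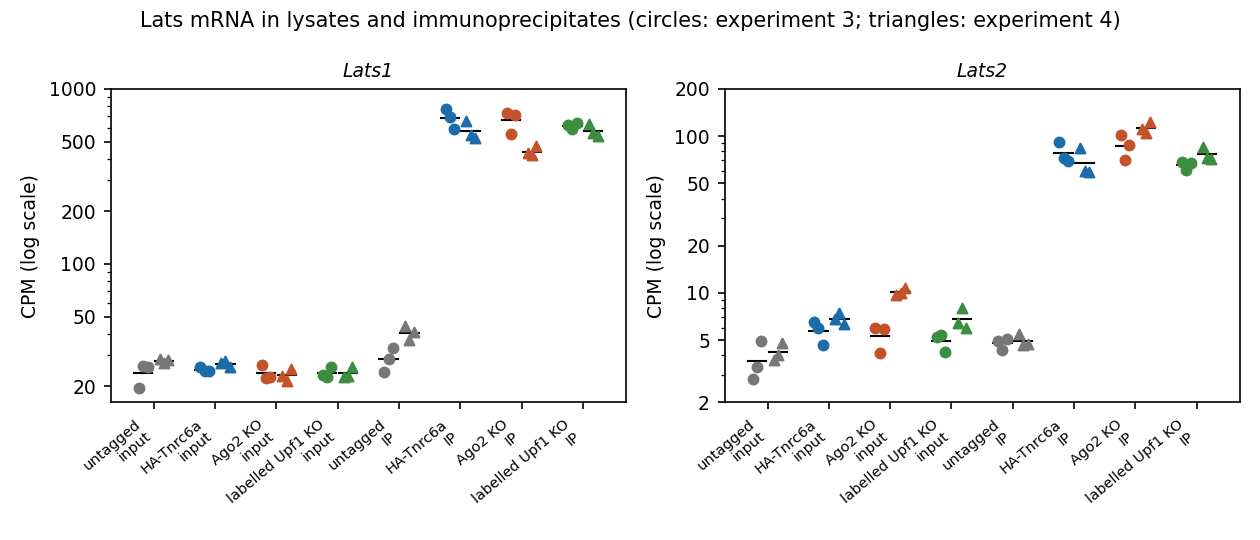
Level of Lats1 and Lats2 mRNA in each of the 48 libraries, in CPM on a log scale (circles, experiment 3; triangles, experiment 4; bars, means of 3 libraries). In IPs of the tagged lines Lats1 lies between 418 and 771 CPM and Lats2 between 58.7 and 123 CPM, above all inputs and all untagged IPs.

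The upstream kinases went opposite ways. Stk4 (Mst1) was enriched by 0.82 ± 0.08 (log2, adjusted p = 2.3e-11), its IPs of experiment 3 holding 163, 164 and 145 CPM with the tag and 70.6, 87.1 and 90.8 CPM without it. Stk3 (Mst2), its close paralogue, was lower by a log2 of -0.58 ± 0.09 (adjusted p = 1.4e-06). In experiment 4, Stk3 in IPs was at 14.9, 15.8 and 16.7 CPM with the tag and at 28.0, 29.7 and 27.0 CPM without it. For each of these kinases the groups did not overlap in either experiment, Stk4 being higher and Stk3 lower with the tag.

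Neither coactivator was enriched. Yap1 gave a log2 of -0.17 ± 0.06 (adjusted p = 0.023), which came from experiment 3 (-0.36) and not from experiment 4 (0.02), although the difference between the experiments did not pass (adjusted p = 0.20). In experiment 3, Yap1 in IPs was at 117, 120 and 108 CPM with the tag and at 168, 148 and 145 CPM without it. In experiment 4, the IPs of the 2 genotypes overlapped, at 148 to 166 and 148 to 161 CPM. Wwtr1, the gene of the coactivator Taz, gave 0.04 (95% interval -0.15 to 0.24), and its IPs overlapped between the genotypes.

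The Tead factors, which bring Yap and Taz to DNA, split into enriched and unenriched members. Tead4, the member known for its role in trophectoderm, was enriched by 1.17 ± 0.09 (log2, adjusted p = 2.1e-13), and Tead1 by 1.14 ± 0.07 (adjusted p = 1.9e-15). In experiment 3, Tead1 in IPs was at 321, 293 and 279 CPM with the tag and at 113, 140 and 137 CPM without it. Tead2, the most abundant of the family in these cells, gave 0.11 (95% interval -0.01 to 0.23). Tead3, the rarest, gave 0.61 ± 0.25 (adjusted p = 0.033) from 42 to 143 counts per library in the HA-Tnrc6a groups. In untagged IPs of experiment 3 its counts were lower, at 22 to 57 per library. When each of the 24 libraries was left out in turn, the Tead3 call held in 13 fits, with adjusted p from 0.0019 to 0.097 over these fits. It held in 6 of 10 other settings, being lost with library totals, with the IPs alone and in either experiment alone.

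No member's enrichment differed between the experiments by the interaction test, which called 0.365% of all genes. Experiment 4 gave the lower estimate for Lats1, Lats2, Tead4, Tead1 and Stk4, without a difference that passed.

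Enrichment over the same untagged libraries was also measured in the 2 knockout lines, so the 3 sets of values share their controls. In Ago2 knockout cells 6 of the 10 genes were higher and 4 lower, where 64.7% of genes were called (31.5% higher, 33.2% lower). In cells labelled Upf1 knockout 7 were higher and 2 lower, where 63.6% were called (31.8% in each direction). Lats1 was enriched by 4.14 ± 0.11 and 4.32 ± 0.10 (log2) in these lines and Lats2 by 3.46 ± 0.15 and 3.39 ± 0.15, beside the 4.21 and 3.24 above. Stk4 reached 1.29 without Ago2 and 0.75 with the Upf1 knockout label. Tead2 was lower than in the untagged control in Ago2 knockout cells (-0.39 ± 0.06) and higher in the line labelled Upf1 knockout (0.17 ± 0.06, adjusted p = 0.015). The latter call was lost without untagged IP replicate 1, 2 or 3 of experiment 3 (0.219, 0.485 and 0.354 for the adjusted p of Tead2), and with library totals in place of TMM the value was -0.091. It held in 4 of 10 other settings, being lost as well with DESeq2, RLE size factors, all 48 libraries in 1 fit and either experiment alone. Wwtr1 was called lower in Ago2 knockout cells (-0.22 ± 0.09, adjusted p = 0.040), a call that held in 10 of 24 fits without 1 library and in neither experiment alone.

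**Figure D3:**
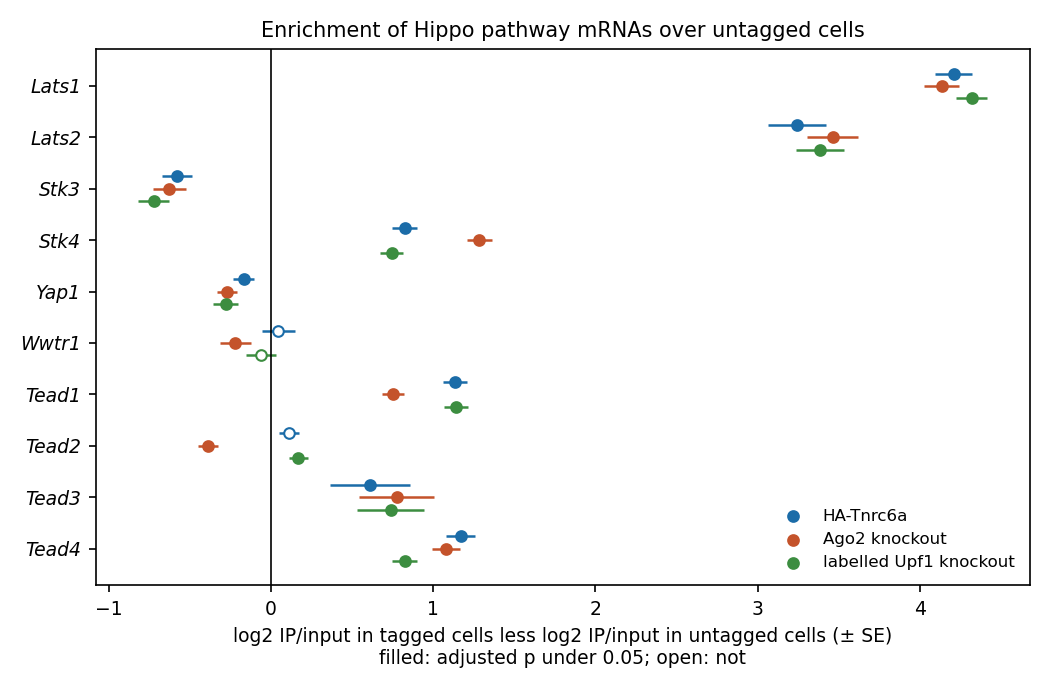
Enrichment (log2 IP over input less the same in untagged cells) of the 10 Hippo pathway mRNAs in the 3 tagged lines, with standard errors (filled, adjusted p under 0.05; open, not). Lats1 lies at 4.14 to 4.32 and Lats2 at 3.24 to 3.46 in all 3 lines, and no other gene exceeds 1.29.

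The next comparison asked whether recovery with HA-Tnrc6a changed when Ago2 was missing. Recovery is the log2 ratio of IP to input in the knockout less that in HA-Tnrc6a cells. Stk4 rose and Tead2, Tead1 and Wwtr1 fell, which is 4 of 10 genes past the threshold where 21.3% of all genes were called (9.09% higher, 12.3% lower). The median over the 10 genes was -0.09, against -0.04 over all genes. Stk4 rose by 0.46 ± 0.07 (log2, 1.37-fold, adjusted p = 5.5e-06), its IPs of experiment 4 holding 229, 211 and 230 CPM without Ago2 and 162, 154 and 143 CPM with it. Its groups did not overlap in either experiment, and the call held in experiment 4 alone but not in experiment 3 alone (0.079 for the adjusted p of Stk4). Tead2 fell by 0.51 on the log2 scale (SE 0.06, adjusted p = 7.3e-08). Its IPs of experiment 4 held 114, 103 and 115 CPM without Ago2 and 157, 144 and 147 CPM with it, while the inputs were at 153 to 157 and 146 to 154 CPM. Tead1 fell by 0.39 (SE 0.06, adjusted p = 4.5e-06) and Wwtr1 by 0.27 (SE 0.08, adjusted p = 0.0083). The Wwtr1 call rested on both experiments together, each giving -0.27 but neither passing when fitted alone.

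The Lats mRNAs did not pass this test. Lats1 gave -0.08 (95% interval -0.28 to 0.12) and Lats2 0.22 (-0.13 to 0.56), so changes within these intervals are not excluded. Lats2 levels in the IPs were 111, 105 and 123 CPM in Ago2 knockout cells of experiment 4 and 83.7, 59.7 and 58.7 CPM in HA-Tnrc6a cells, which did not overlap. The Lats2 inputs of experiment 4 differed as well, at 9.71 to 10.8 and 6.31 to 7.42 CPM, and recovery takes this into account. With the IPs alone and no inputs, the Lats2 value was 0.49 (adjusted p = 0.00047). Yap1 (-0.11), Stk3 (-0.05), Tead3 (0.16) and Tead4 (-0.09) did not pass either.

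In cells labelled Upf1 knockout, Tead4 alone among the 10 passed for recovery, with a fall of 0.36 on the log2 scale (SE 0.08, adjusted p = 0.0067), where 4.49% of genes were called (2.92% higher, 1.57% lower). It fell by 0.37 in experiment 3 and by 0.34 in experiment 4. The other 9 lay between -0.16 (Stk3) and 0.13 (Lats2). Lats1 gave 0.10 (95% interval -0.07 to 0.27). The call was lost in each experiment fitted alone (0.127 and 0.103 for the adjusted p of Tead4 in experiments 3 and 4). With the IPs alone the Tead4 average was -0.01, which stands for neither experiment. Its IPs held 32.1 ± 1.33 CPM (SD, n = 3) with the Upf1 knockout label and 49.6 ± 5.83 CPM in HA-Tnrc6a cells in experiment 3, and 65.9 ± 4.6 and 44.2 ± 3.56 CPM in experiment 4. Wwtr1 and Tead3 did not pass in recovery, but their levels rose in the IPs as in the inputs, the IPs alone giving 0.54 for Wwtr1 and 1.15 for Tead3 (adjusted p = 3.8e-07 and 7.2e-09).

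The 2 knockout lines were compared directly as well. Recovery of Stk4 (0.57 ± 0.06) and Tead4 (0.28 ± 0.08) was higher in Ago2 knockout cells than in cells labelled Upf1 knockout, and that of Tead1 (-0.36 ± 0.06) and Tead2 (-0.53 ± 0.06) was lower, where 24.4% of genes were called (10.9% higher, 13.5% lower). Lats1 (-0.16) and Lats2 (0.10) did not pass. The Stk4 and Tead2 differences were of like size in experiment 3 (0.49 and -0.55) and experiment 4 (0.64 and -0.52), while Tead1 gave -0.55 and -0.17. With the IPs alone the Tead4 average was -0.23, but the direction turned with the experiment. Its IPs held 43.0 CPM without Ago2 and 32.1 CPM with the Upf1 knockout label in experiment 3, and 36.6 and 65.9 CPM in experiment 4 (means of 3 libraries).

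**Figure D4:**
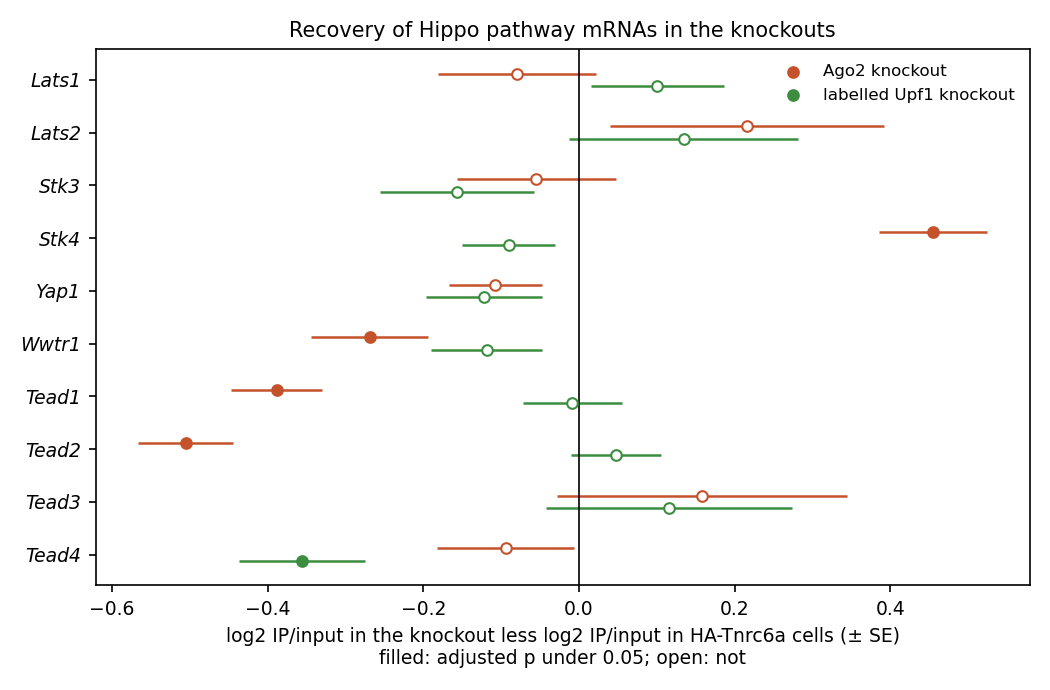
Recovery (log2 IP over input in each knockout line less the same in HA-Tnrc6a cells) with standard errors (filled, adjusted p under 0.05; open, not). Stk4 (0.46), Wwtr1 (-0.27), Tead1 (-0.39) and Tead2 (-0.51) pass in Ago2 knockout cells, and Tead4 (-0.36) passes in cells labelled Upf1 knockout.

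The inputs show the mRNA levels in the lysates. In inputs labelled Upf1 knockout, Tead3, Wwtr1, Tead4, Stk3 and Tead2 were higher than in HA-Tnrc6a inputs and Tead1, Lats1 and Stk4 lower. These 8 of 10 genes compare with 58.6% of all genes called (29.5% higher, 29% lower). Tead3 rose 2.11-fold (log2 1.08 ± 0.11, adjusted p = 1.4e-11). It was at 6.77, 5.83 and 6.1 CPM in experiment 3 and 7.68, 8.09 and 6.38 CPM in experiment 4, and the HA-Tnrc6a inputs lay at 2.29 to 4.29 and 2.83 to 3.59 CPM. These groups did not overlap, while the untagged inputs of experiment 4, at 4.81 to 6.37 CPM, lay just below the labelled ones of that experiment.

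Wwtr1 rose 1.62-fold in the same inputs (log2 0.70 ± 0.04, adjusted p = 4.5e-21). It was at 54.2, 51.6 and 55.1 CPM in experiment 3 and 57.3, 56.1 and 58.0 CPM in experiment 4, above every other input, the highest of which was 38.4 CPM. Its paralogue Yap1 did not pass, at 0.02 (95% interval -0.04 to 0.07). Tead4 was the member whose input depended most on the experiment. In experiment 4 it was at 51.6, 47.2 and 50.2 CPM in inputs labelled Upf1 knockout and at 24.8, 26.7 and 26.3 CPM in those of HA-Tnrc6a cells. In experiment 3 the values were 17.3, 16.4 and 18.9 CPM and 18.1, 21.5 and 19.5 CPM. The log2 differences were 0.95 and -0.18, and their average of 0.39 (adjusted p = 3.1e-09) stands for neither experiment. The untagged inputs moved likewise, from 19.7 to 20.3 CPM in experiment 3 to 33.9 to 39.0 CPM in experiment 4.

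The other changes in inputs labelled Upf1 knockout were small. The interaction of genotype and experiment, which called 11.6% of all genes, passed for Tead4, Tead2, Tead1 and Wwtr1. Stk3 rose by 0.25 ± 0.05 (log2) and Tead2 by 0.20 ± 0.03, the latter from experiment 3 (0.38) and not experiment 4 (0.02). Tead1 fell by 0.20 (-0.34 in experiment 3 and -0.06 in experiment 4), Lats1 by 0.12 and Stk4 by 0.08. The Lats1 call held in 5 of 12 fits without 1 library and was lost with library totals or with all 48 libraries in the fit. The Stk4 call held in 10 of 12 such fits. It was lost without HA-Tnrc6a input replicate 3 or Upf1-labelled input replicate 3 of experiment 3 (adjusted p = 0.069 and 0.057 for Stk4). Lats2 gave -0.11 (95% interval -0.30 to 0.09).

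**Figure D5:**
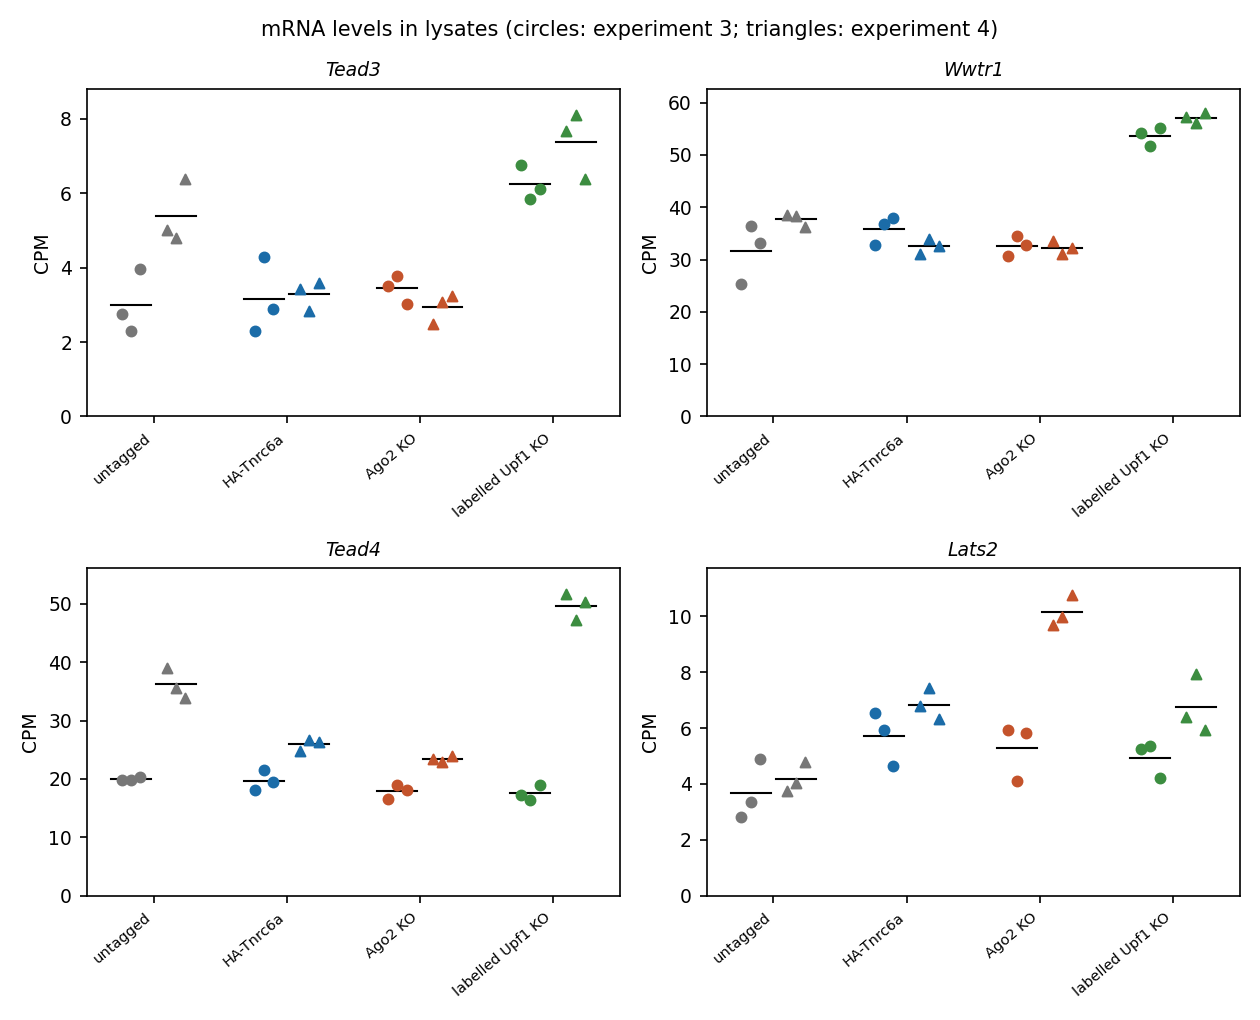
Levels of Tead3, Wwtr1, Tead4 and Lats2 mRNA in the inputs, in CPM (circles, experiment 3; triangles, experiment 4; bars, means of 3 libraries; n = 3 per group). Wwtr1 lies between 51.6 and 58.0 CPM in inputs labelled Upf1 knockout and at or below 38.4 CPM elsewhere, and Lats2 is highest in Ago2 knockout inputs of experiment 4 (9.71 to 10.8 CPM).

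In Ago2 knockout inputs the 10 mRNAs stayed close to their levels in HA-Tnrc6a inputs when averaged over the experiments, though Lats2 and Tead2 differed by experiment. Tead2 was higher by 0.19 ± 0.03 (log2, adjusted p = 6e-07), and Tead4 (-0.14), Lats1 (-0.14) and Tead1 (-0.08) were lower, which is 4 of 10 where 30.9% of genes were called (15.7% higher, 15.2% lower). Of 12 fits without 1 library, the Lats1 call held in 4 and the Tead4 call in 5, with adjusted p up to 0.109 and 0.142. Lats2 did not pass on average (0.24 ± 0.10, adjusted p = 0.055) and parted by experiment. In experiment 4 its inputs were at 9.71, 9.97 and 10.8 CPM without Ago2 and at 6.79, 7.42 and 6.31 CPM with it (log2 0.57). In experiment 3 they were at 5.95, 4.11 and 5.84 CPM and at 6.55, 5.93 and 4.65 CPM (log2 -0.09). The groups overlapped in experiment 3 and not in experiment 4, and the interaction, which called 5.94% of all genes, passed for Lats2 and Tead2. Without Ago2 knockout input replicate 2 of experiment 3, HA-Tnrc6a input replicate 1 of experiment 3 or HA-Tnrc6a input replicate 2 of experiment 4, the Lats2 average passed (adjusted p = 0.011, 0.026 and 0.042).

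Markers of other cells were summed in the inputs. The summed level of 5 endoderm markers was 6.13 to 7.84 CPM in Ago2 knockout inputs, 29.0 to 33.9 CPM in HA-Tnrc6a inputs, 10.1 to 34.5 CPM in untagged inputs and 11.8 to 48.5 CPM in inputs labelled Upf1 knockout, so that the Ago2 knockout inputs lay below all others. The sum of 4 fibroblast markers was 46.5 to 57.4 CPM in inputs labelled Upf1 knockout and 35.9 to 48.1 CPM in those of HA-Tnrc6a cells, which overlapped. Those of 2 trophoblast markers (68.9 to 114 CPM in Ago2 knockout and 49.5 to 77.0 CPM in HA-Tnrc6a inputs) and of 4 neural and mesoderm markers (9.29 to 21.3 and 6.81 to 17.9 CPM) overlapped. The trophoblast sum was mostly Tfap2c (median 64.6 CPM over the inputs, Eomes 5.61), and the neural and mesoderm sum mostly Sox1 (11.2). Each of these 2 sums therefore rests mainly on 1 gene. Thy1 (median 25.8 CPM over the inputs) made up most of the fibroblast sum, with Pdgfrb at 11.1 and Col1a1 at 3.03 CPM. Cdx2 and Elf5 (trophoblast) and Col3a1 (fibroblast), also listed, were absent from the count table. Foxa2 (endoderm) and Col1a2 (fibroblast) were at 0 in some inputs. The part of other cells in the input differences was not tested. In these bulk samples fewer cells of a type and less RNA per cell cannot be told apart.

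Inputs of the 2 knockout lines were also compared with each other. Tead3 (-1.09), Wwtr1 (-0.77) and Tead4 (-0.53) were lower in Ago2 knockout inputs than in inputs labelled Upf1 knockout, and Lats2 (0.35 ± 0.10, adjusted p = 0.0016), Stk4 (0.13) and Tead1 (0.13) were higher, where 62.3% of genes were called (31.4% higher, 30.9% lower). The Tead4 and Tead1 differences came from 1 experiment each, with 0.05 and 0.30 in experiment 3 and -1.10 and -0.05 in experiment 4. Lats2 gave 0.13 in experiment 3 and 0.57 in experiment 4.

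HA-Tnrc6a inputs were compared with untagged inputs to see whether the tagged line itself differed. Lats2 was 1.59-fold higher (log2 0.67 ± 0.12, adjusted p = 0.00019), with 0.63 and 0.70 in experiments 3 and 4. Untagged inputs were at 2.8, 3.34 and 4.89 CPM in experiment 3 and at 3.75, 4.02 and 4.79 CPM in experiment 4, and the HA-Tnrc6a values given above overlapped them in experiment 3 only. The second Lats2 row rose by 0.39 ± 0.11 (adjusted p = 0.014), a call lost without HA-Tnrc6a input replicate 1 of experiment 3 (adjusted p = 0.064). Tead4 fell by 0.25 and Tead1 by 0.10, which makes 3 of 10 genes where 15.4% of all genes were called (7.74% higher, 7.67% lower). The Tead1 call held in 1 of 12 fits without 1 library, and the Tead4 value came from experiment 4 (-0.48) and not experiment 3 (-0.02).

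The beads alone recovered some members unevenly. In untagged cells, IP over input was 0.40 ± 0.08 (log2) for Lats1 and 0.19 ± 0.06 for Stk3, and -0.43 ± 0.06 for Tead1, where 35.7% of genes were called (18% higher, 17.8% lower). The Stk3 call held in 7 of 12 fits without 1 library. The other 7 genes did not pass, and Yap1 gave 0.27 in experiment 3 and -0.19 in experiment 4. The median over all genes was -0.03.

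Other Hippo genes give the setting of these values. The counts cover all genes tested, and the genes named are the ones furthest out at an average log2 CPM of at least 3. Of the 22 further kinase-side genes tested (Mob, Sav1, Nf2 and the Map4k and Taok kinases among them), 10 were enriched with HA-Tnrc6a and 5 were lower (29.8% and 32.2% over all genes), with a median of 0.27 (log2) against -0.10 over all genes. The most enriched was Mob1b (3.09 ± 0.10), one of the Lats coactivators, followed by Mink1 (2.46 ± 0.09), a kinase of the Map4k family. Taok3 and Map4k1, upstream kinases, were lower (both -0.57). Of 21 junction and nuclear partners, 11 were higher and 9 lower (median 0.24). Vgll4 (2.88 ± 0.14), which competes with Yap for Tead, and Limd1 (2.30 ± 0.11), an inhibitor of Lats, were at the top. The 14-3-3 genes Ywhae (-1.05) and Ywhaz (-0.65), which retain phosphorylated Yap in the cytoplasm, were at the bottom.

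Of 18 genes that Yap and Taz are known to activate, 12 were enriched and 1 was lower (again beside 29.8% and 32.2%), with a median of 1.11. At that average level F3, the tissue factor gene, led with 4.48 ± 0.14, followed by Fjx1 (3.26 ± 0.18), while values of rarer targets reached 6.25, and Myof was lower (-0.35). In Ago2 knockout cells 7 of these 18 rose in recovery and none fell, where 9.09% of all genes rose and 12.3% fell (median 0.24, all genes -0.04), among them Ccn1 (1.06 ± 0.15) and F3 (0.75 ± 0.12). Over the kinase side, recovery of 4 rose and of 5 fell, with Taok2 (0.56) and Rassf1 (0.49) up and the Lats-related kinase gene Stk38l (-0.65) and Frmd6 (-0.53) down. Of the partners 2 rose, among them Wtip (0.46), and 4 fell, such as Ywhaq (-0.35). In cells labelled Upf1 knockout, where 2.92% of all genes rose and 1.57% fell, recovery of 1 kinase-side gene rose (Mink1, 0.31) and of 1 fell (Stk38, -0.63). Csnk1d (-0.24) was the 1 partner past the threshold, and 5 targets rose, with F3 at 0.44 and Arhgef17 at 0.32. Rarer targets included, the values there ran from -0.08 to 3.33.

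The inputs of these lists moved in both directions. In inputs labelled Upf1 knockout, 12 kinase-side genes were higher and 7 lower, beside 29.5% and 29% of all genes (median 0.10), led by Rassf1 (1.75 ± 0.04), which binds the Mst kinases. Map4k2 was higher (0.56) and Tnik (-0.52) and Sav1 (-0.24) were lower. Of the partners, 6 were higher, among them the casein kinase gene Csnk1e (0.74), and 7 lower, among them Sfn (-0.41). Of 17 targets tested, 4 were higher and 7 lower (median -0.02, as over all genes), with Amotl2 at 0.86, Gadd45a at 0.53 and Nt5e at -0.78. Rarer targets included, the values ran from -5.93 to 0.86. In Ago2 knockout inputs, where 15.7% of all genes were higher and 15.2% lower, 9 kinase-side genes were higher and 4 lower, with Stk38l at 0.43 and Mob1a at 0.30. There 5 targets were higher and 5 lower, with Dock5 at 0.47 and Nt5e at -0.44, and rarer targets reached -5.04.

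Across the 16 group means of log2 CPM, the profile of Lats1 followed that of Lats2 (Pearson r = 0.97). These points share the tag and the fraction, so the value describes the contrast of tagged IPs with everything else. Among 11090 genes at an average log2 CPM of at least 3, the closest to Lats2 were its second row (r = 0.99), Clptm1l (r = 0.99) and Mob1a (r = 0.99), the last a coactivator of the Lats kinases. Among the closest to Yap1 were Uhrf1 (r = 0.93) and Lyn (r = 0.93).

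Start regions were searched for GGAATG, the core of the motif that Tead factors bind, on both strands, in the 300 bases from 250 before to 50 after each RefSeq start. Of the 10 genes, 7 had such a window in the table, and 4 of them (Lats2, Yap1, Wwtr1 and Tead3) held at least 1 match. Of the 11 windows of the 7 genes 6 held one, but the 2 Wwtr1 windows overlap and share theirs. Of all 32851 windows, 14.7% held one. A match is a description of these letters, and the libraries measured no binding.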

How the data were processed

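RNA from inputs and HA IPs of 4 mouse embryonic stem cell genotypes was sequenced with a stranded total RNA kit, per the labels. The authors deposited raw counts per gene and library, not normalized, in 1 table of 20171 genes. The submitters' processing notes name STAR 2.7.3a, bcl2fastq 2.20 and the builds GRCm38 and mm10. The counting tool and its strand setting are not given in the sources used here. A second set of deposited columns, headed RPKM, is a scaled signal (count divided by 1 factor per library) and was not used, and the deposited length of each gene, in bases, gave levels per kilobase. Library totals were 11471544 to 73845953.

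Counts were tested with edgeR 4.0.16 (limma 3.58.1, R 4.3.3): TMM, filterByExpr with a minimum count of 10, 1 coefficient per group, robust quasi-likelihood fit of the groups compared, contrasts averaged over experiments 3 and 4 with equal weight, two-sided tests, Benjamini-Hochberg adjustment over all genes tested, threshold 0.05. The SE is the log2 fold change over the square root of F, and 95% intervals are normal ones from it. The difference between experiments was tested as an interaction. The script was tested on simulated data. The smallest chi-square per degree of freedom between replicates of a group was 1.96, so no library appeared more than 1 time within a group. Libraries of different groups were not compared in this way.

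The members and the gene lists were chosen with earlier results of these data known. All members are named. Of each list, up to 2 genes per direction were named, those with the largest change past the threshold, of 1 sign in both experiments and with an average log2 CPM of at least 3. Some genes that this rule names are not reported here. Of 24 kinase-side, 23 partner and 20 target symbols, 22, 21 and 18 were found in the table. Map4k6, an older name of Mink1, was 1 of those that were not. Alternatives were DESeq2 1.42.0, other scalings and filters, single experiments, all libraries in 1 fit, IPs alone, summed Lats2 rows, a replicate block and leaving out each library. A planned search for microRNA seed sites was not run.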

Additional observations from a re-analysis of the deposited data

Results flagged for a closer look

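The differences between HA-Tnrc6a inputs and the knockout inputs differed between the experiments for 5 of the genes, by the interaction test (edgeR, adjusted p under 0.05). This test called 5.94% of all genes in Ago2 knockout inputs and 11.6% in inputs labelled Upf1 knockout. The values below are the log2 difference of experiment 4 less that of experiment 3.

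In Ago2 knockout inputs, Lats2 differed by 0.66 ± 0.19 (-0.09 in experiment 3 and 0.57 in experiment 4, adjusted p = 0.029), and the second Lats2 row by 0.70 ± 0.21 (-0.21 and 0.49, adjusted p = 0.038). The Lats2 call held in 6 of 12 fits without 1 library and that of the second row in 3 of 12, with adjusted p up to 0.12 and 0.15. Tead2 differed by -0.28 ± 0.06 (0.33 and 0.05, adjusted p = 0.00082).

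In inputs labelled Upf1 knockout, Tead4 differed by 1.13 ± 0.10 (-0.18 and 0.95, adjusted p = 3.3e-12), with a change of sign. Tead2 differed by -0.36 ± 0.05 (0.38 and 0.02, adjusted p = 3.1e-06) and Tead1 by 0.28 ± 0.06 (-0.34 and -0.06, adjusted p = 0.00041). Wwtr1 differed by 0.26 ± 0.08 (0.57 and 0.83, adjusted p = 0.018) and held in 8 of 12 fits without 1 library. The calls of Tead4, Tead2 and Tead1 in these inputs, and that of Tead2 in Ago2 knockout inputs, held in all 12. With all 48 libraries in 1 fit, the calls of Lats2, its second row, Tead2 in Ago2 knockout inputs, Tead1 and Wwtr1 were lost (adjusted p = 0.24, 0.17, 0.075, 0.13 and 0.36). The HA-Tnrc6a inputs enter each of these differences.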

How the results depend on the processing

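Over 3388 recomputed values of the members (11 rows, 11 comparisons), 3204 kept their side of the threshold and, where called, their direction (78 of them changed sign without passing in either fit), 126 fell out of the threshold, 48 came into it and 10 changed sign with a pass in 1 of the 2 fits or both, 4 of them past it only as reported. The counts below are rows, with Lats2 as 2. The fits did not pair input with IP. Deviations of same-numbered libraries of an experiment had a mean correlation of 0.065 over 168 pairs (highest 0.67). For input and IP of 1 genotype and number the mean was 0.10 over 24 pairs (-0.05 to 0.50, 9 above 0.1). The replicate block, shared by all genotypes and both fractions, cannot show the effect of pairing each IP with its input. It changed 1 of 121 calls, Stk3 in Ago2 knockout against Upf1-labelled inputs (-0.12, adjusted p = 0.032). DESeq2 changed 3 of 121 calls and RLE size factors 1.

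Using the IPs alone, all genes past the threshold rose to 7482 in recovery in Ago2 knockout cells, 8805 in cells labelled Upf1 knockout and 10794 between the knockouts, and members to 7, 5 and 9. Wwtr1 then reversed to 0.54 in recovery and 0.55 in enrichment in cells labelled Upf1 knockout, and between the knockouts Tead3 reversed to -1.01 and Tead4 to -0.23, the latter an average of opposite directions in the 2 experiments. With library totals, Tead2 enrichment in cells labelled Upf1 knockout became -0.091 and bead recovery of Yap1 -0.13. On beads, 7 members and 9556 of all genes then passed, beside 6892 genes in the reported fit. That scaling also lowered the share of higher calls among all genes from 50.3% to 20.9% on beads, from 65.1% to 22.4% in recovery in cells labelled Upf1 knockout and from 50% to 36.4% in their enrichment, and raised it from 44.6% to 63.4% in recovery between the knockouts. In recovery in cells labelled Upf1 knockout it was 52.8% with RLE size factors. With all 48 libraries fitted together, 3902 of all genes and 1 of the members passed in Ago2 knockout inputs and 1937 genes in HA-Tnrc6a against untagged inputs. DESeq2 left 2 members and 5700 of all genes in Ago2 knockout inputs.

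Experiment 3 alone, the shallower, gave 1972 of all genes on beads, 3382 in Ago2 knockout inputs and 652 in HA-Tnrc6a against untagged inputs. It gave 8896 between the knockout inputs and 8571 in Upf1-labelled inputs. In recovery it gave 1623, 162 and 2667 (Ago2 knockout, labelled Upf1 knockout, and between them). Its members past the threshold were 1 on beads, 1 in Ago2 knockout inputs, 4 between the knockout inputs, 0 in HA-Tnrc6a against untagged inputs, 5 in Upf1-labelled inputs, and 2 and 0 in recovery in Ago2 knockout and Upf1-labelled cells. In it Tead4 lost its call and changed sign, to -0.18 in Upf1-labelled inputs and 0.029 between the knockout inputs. Experiment 4 alone gave 384 genes and 0 members in recovery in Upf1-labelled cells. On beads it gave 7562 genes and 6 members, and Yap1 reversed to -0.16. Between the knockout inputs, Tead1 lost its call and changed sign, to -0.049. Leaving out 1 library gave 2 to 5 members in Ago2 knockout inputs (5478 to 5948 of all genes). It gave 2 to 5 in HA-Tnrc6a against untagged inputs (2348 to 4151 genes) and 2 to 4 on beads (5859 to 7507 genes). In recovery in Upf1-labelled cells it gave 1 to 2 members and 591 to 957 of all genes. Lats1 and Lats2 enrichment passed in every fit run. Depth limits Tead3 and Lats2 inputs, with 42 to 137 and 97 to 256 counts per HA-Tnrc6a library.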
